A study of Macaca fascicularis with 80 samples.

Results

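The blood response 24 h after the first dose of IL-15/IL-15Ra was measured in 8 cynomolgus macaques (Macaca fascicularis), 4 females and 4 males. Each animal was compared with itself, day 1 against day 0, by the animal number in the column names, which took 16 of the 80 libraries of the series. The day 0 group is whole blood of animals at a dose of 0 µg/kg, labelled Control. The day 1 group is whole blood of the same animals 24 h after 5 µg/kg IL-15/IL-15Ra. Later dosing of these animals with 10 and 15 µg/kg enters only where stated. No undosed animals were bled on day 1 among the libraries analysed here, so the dose and anything else that changed over these 24 h cannot be told apart. No source used here gives strain or age.

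Interleukin 15 is a cytokine that supports natural killer cells and memory CD8 T cells. It is naturally presented in trans on its receptor alpha chain (IL-15Ra) to cells that carry the shared beta and common gamma chains, and it signals inside the cell through the kinases JAK1 and JAK3 to the transcription factor STAT5. Coupling IL-15 to IL-15Ra is known to prolong its life in the circulation and to raise its potency. Whole blood RNA pools granulocytes, monocytes, lymphocytes, reticulocytes and platelets, and in such bulk samples fewer cells of a type and less RNA per cell cannot be told apart.

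The deposited tables name genes by Ensembl identifier only. Of the 38550 identifiers in the main table and the 35432 in the second, 0 matched the RefSeq gene table at hand. Gene products are therefore not named, marker genes of blood cell types could not be looked up, and 4 identifiers are printed: those with the smallest p-value on day 1, 2 of 273 eligible that rose and 2 of 143 eligible that fell. Eligible genes passed the test, averaged at least 2 log2 CPM (counts scaled to a common library size) and moved the same way in 8 of 8 animals. Because they were selected on this contrast, their day 1 values describe that choice. Whether any of them shares reads with a near-identical gene could not be checked.

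Totals of the 16 libraries lay between 20.8 M and 30.3 M counts (M, mega), with a median of 21.9 M on day 0 and 26.5 M on day 1. All carried the same sequencing run and library tag. Among later libraries, some of days 10 and 14 carried another run tag, and that of animal 39095 on day 7 another library tag. In the blood of day 1 fewer genes reached a level of 1 CPM, with 12552 ± 178 genes (SD, n = 8) on day 0 and 12429 ± 282 on day 1. The number was lower in 7 of 8 animals, by a mean of 123 genes, although most day 1 libraries were deeper (exact two-sided sign-flip permutation p = 0.0156, 0.0156 after Benjamini-Hochberg adjustment over 2 such measures). At 5 CPM the direction was the same and the threshold was missed (mean difference -72.2, exact permutation p = 0.0781). The 10 most abundant genes together took a larger share of all counts on day 1, 7.09% ± 0.47 against 6.65% ± 0.50, in 7 of 8 animals (exact permutation p = 0.0156, adjusted 0.0156). They did not all rise: their log2 changes ran from -0.13 to 0.72, with a median of 0.09. The most abundant gene of each library alone took 1.47% ± 0.11 on day 0 and 1.70% ± 0.25 on day 1.

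Genes changed in both directions after the first dose. Over all calls the median fall was larger than the median rise. The medians were closer among genes of similar level, but more of the falls passed 2-fold in the middle and upper classes of level (below). Of 16054 genes tested, 419 (2.61%) were higher on day 1 and 298 (1.86%) were lower at an adjusted p under 0.05 (edgeR quasi-likelihood test with animal as block), together 4.47%. The genes called higher had a median log2 fold change of 0.44 (quartiles 0.33 and 0.63). Those called lower had a median of -0.61 (quartiles -1.09 and -0.41). The median over all genes tested was -0.01. A change of more than 2-fold was seen in 28 genes upward (0.174% of genes tested) and 80 downward (0.498%), and 32 of the falling genes, against 3 of the rising ones, passed 4-fold. Scaling was by trimmed-mean (TMM) factors. The excess of rising genes was not kept when counts were scaled by library totals alone (348 higher and 400 lower) or when all 80 libraries were fitted together (46 higher and 73 lower). Without the animal block 10 genes were called, 5 in each direction, so the calls rest on comparing each animal with itself.

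**Figure D1:**
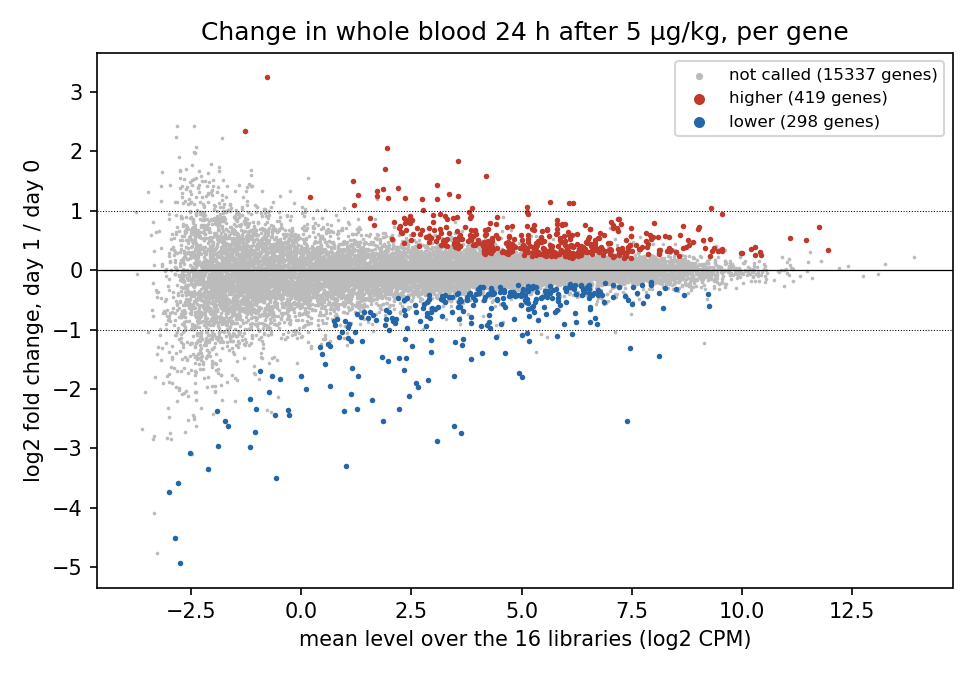
Each point is 1 of the 16054 genes tested, with its mean level over the 16 libraries (log2 CPM) on the horizontal axis and its log2 fold change from day 0 to day 1 on the vertical axis. Red points are the 419 genes called higher, blue points the 298 called lower, and dotted lines mark 2-fold changes; the blue points reach further from 0 than the red ones.

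The rising and falling genes differed in level. The tested genes were divided into 5 classes of equal size by mean log2 CPM, a count level that is not corrected for gene length. In the highest class, above 5.96 log2 CPM, 174 genes rose (5.42%) and 61 fell (1.90%). In the middle class 103 rose and 82 fell. In the class between -0.38 and 2.35 log2 CPM, 23 rose (0.716%) and 56 fell (1.74%), and in the lowest class 2 rose and 20 fell. Precision changed along the same scale, since the median SE of a log2 fold change was 0.58 in the lowest class and 0.07 in the highest. All 22 calls in the lowest class therefore exceeded 2-fold, against 7 of 235 in the highest. Within a class the median log2 fold changes of rising and falling calls were close. They were 2.80 and -2.67 in the lowest class, 1.10 and -1.08 in the next, and 0.56 and -0.62 in the middle class. In the upper classes they were 0.40 and -0.46, then 0.37 and -0.39. The larger median fall over all calls was therefore not seen to the same extent within classes. The share of calls over 2-fold was still larger for falls in the middle and upper classes. It was 17 of 82 falls against 9 of 103 rises in the middle class. In the classes above it was 8 of 79 against 2 of 117, then 4 of 61 against 3 of 174. In the class between -0.38 and 2.35 log2 CPM it was 31 of 56 against 12 of 23. The difference between classes was not tested. In the 28 genes that rose over 2-fold the median level went from 1.95 log2 CPM on day 0 to 3.11 on day 1. In the 80 that fell over 2-fold it went from 2.36 to 0.54. None of the 100 most abundant genes was called lower, and 12 were called higher, with changes of all 100 between -0.30 and 0.95 on the log2 scale. Of the 10 most abundant, 2 were called higher.

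**Figure D2:**
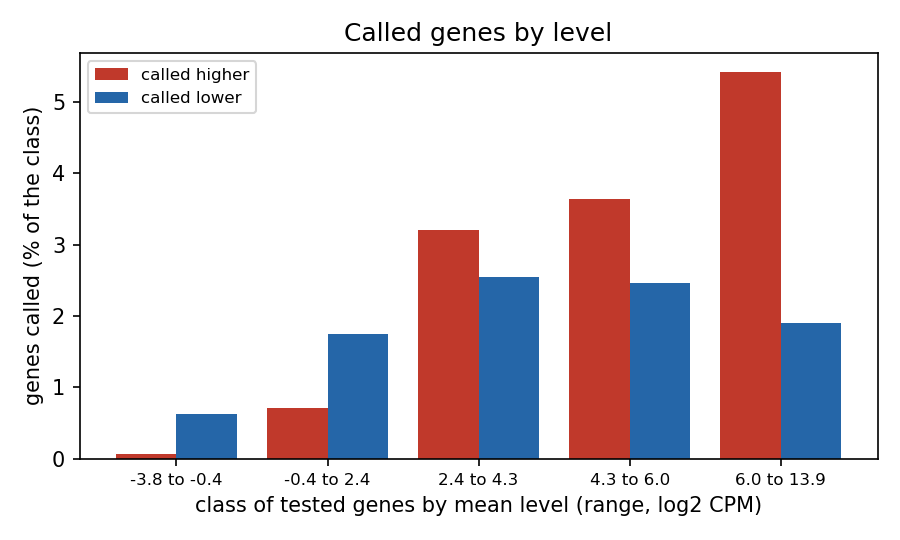
Bars give the percentage of genes called higher (red) or lower (blue) on day 1 within each of the 5 classes of tested genes, ordered by mean level in log2 CPM. Calls of falling genes outnumber those of rising genes in the lowest 2 classes, and the reverse holds in the upper 3.

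As a share of all counts, the 298 falling genes averaged 1.77% ± 0.09 before the dose (SD, n = 8) and 1.23% ± 0.12 after it. Single libraries ran from 1.66% to 1.89% on day 0 and from 0.995% to 1.41% on day 1, so the groups did not overlap. The 419 rising genes went from 5.56% ± 1.29 to 7.32% ± 1.00. Here the ranges overlapped, from 4.70% to 8.54% on day 0 and from 6.14% to 9.07% on day 1. The overlap came from animal 39097, whose day 0 library already stood at 8.54%, while the other 7 lay at or below 5.95%. A single gene held 1.10% of all counts in that library, against 0.120% to 0.404% in the other animals, and 0.961% in the same animal on day 1. Across the 419 rising genes, 39097 had the highest day 0 level of the 8 animals for 92 (21.96%), compared with 11.9% of all genes tested. It lay above the mean of the other animals for 53.5%, compared with 51.3% of all genes, and its median difference from that mean was 0.03 log2 units (0.01 for all genes). These shares were computed on genes selected in the same libraries and are descriptive.

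For most genes the animals overlapped between days even where every animal moved the same way. The direction was shared by 8 of 8 animals for 284 of the 419 rising genes and 192 of the 298 falling genes, and by 7 of 8 for a further 126 and 98. All day 1 libraries lay above all day 0 libraries for 12 genes (0.0747% of those tested), of which 9 were called. All lay below for 15 genes (0.0934%), each of them called. The levels of the falling genes also spread out. The SD between animals was larger on day 1 than on day 0 for 225 of the 298 (75.5%) and for 66 of the 80 that fell over 2-fold (82.5%), compared with 61.2% of all genes tested. For rising genes this held for 199 of 419 (47.5%), and for 10 of the 28 that rose over 2-fold (35.7%). Precision changed with level, and level fell in the falling genes and rose in the rising genes. The part of level in these SDs was not tested. The median SD of the genes that fell over 2-fold was 0.68 log2 CPM on day 0 and 1.08 on day 1.

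ENSMFAG00000026825 rose in all 8 animals. Its level on day 0 was 4.35, 4.62, 4.43 and 5.56 log2 CPM in females 39090, 39095, 39097 and 39098 and 4.66, 3.84, 4.54 and 4.74 in males 39100, 39102, 39103 and 39104. On day 1 the same females stood at 5.35, 5.70, 5.00 and 6.54 and the males at 6.06, 4.77, 6.06 and 5.69. Female 39098 was highest on both days and male 39102 lowest, and the ranges of the days overlapped. The rise was 1.06 on the log2 scale (SE 0.09, adjusted p = 5.82e-05 by edgeR), a 2.08-fold increase, and it ran from 0.57 in female 39097 to 1.52 in male 39103.

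ENSMFAG00000048512 showed the most even change of the 4. Its day 0 levels were 4.59, 5.32, 4.20 and 5.01 log2 CPM in the females and 5.79, 3.85, 4.82 and 4.40 in the males, in the order above. On day 1 they were 5.26, 5.98, 4.91 and 5.72 in the females and 6.79, 4.68, 5.69 and 4.96 in the males. The range between animals on day 0, 3.85 to 5.79, was wider than the change within any animal, which ran from 0.55 to 1.00. The log2 fold change was 0.75 (SE 0.07, adjusted p = 5.82e-05 by edgeR), or 1.68-fold.

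ENSMFAG00000032523 fell the most of the 4. Its day 0 levels were 2.15, 3.47, 2.99 and 5.31 log2 CPM in the females and 4.53, 2.64, 3.20 and 2.82 in the males. On day 1 they were 0.37, 1.91, 0.83 and 2.90 in the females and 0.08, 1.42, 0.57 and 0.28 in the males. The day 1 value of female 39098 lay above the lowest 3 values of day 0, so the groups overlapped. Male 39100 fell furthest, from 569 to 26 counts, a log2 change of -4.44, while the changes of the other 7 ran from -2.63 to -1.22. The fitted log2 fold change was -2.35 (SE 0.26, adjusted p = 0.000427 by edgeR).

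ENSMFAG00000002016 separated the days without overlap. Its day 0 levels were 4.99, 4.09, 4.02 and 4.35 log2 CPM in the females and 4.98, 4.90, 5.06 and 4.42 in the males. On day 1 they were 3.49, 2.54, 3.51 and 3.37 in the females and 2.55, 3.57, 2.67 and 3.18 in the males. The lowest day 0 value, 4.02, was above the highest day 1 value, 3.57. The log2 fold change was -1.49 (SE 0.18, adjusted p = 0.000563 by edgeR). The largest changes were those of males 39100 and 39103, at -2.43 and -2.39, and the smallest that of female 39097, at -0.50.

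**Figure D3:**
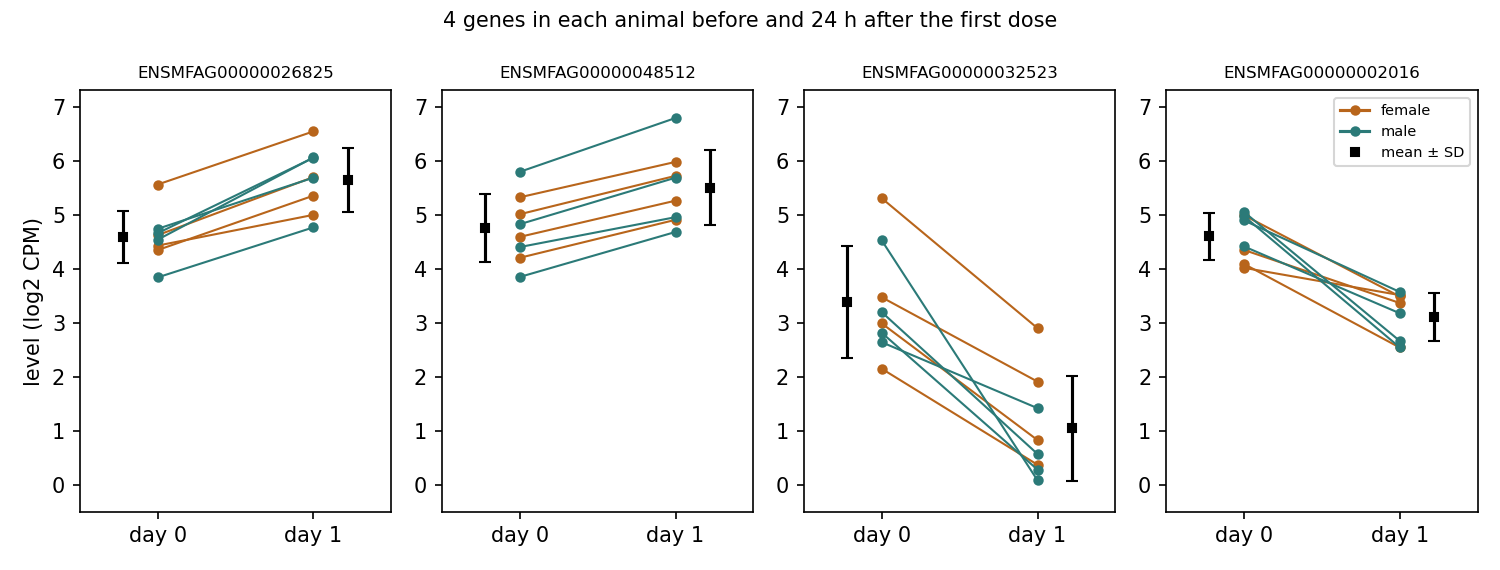
Lines join the day 0 and day 1 levels (log2 CPM) of each animal for the 4 genes, females in orange and males in green, with the mean ± SD of 8 animals beside each day. Lines rise in the left pair of panels and fall in the right pair in all 8 animals, and the days do not overlap for ENSMFAG00000002016.

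The size of the response differed between animals. To measure it without letting an animal choose its own genes, genes were called in the other 7 animals (250 to 385 rising, 192 to 265 falling) and averaged in the animal left out. The rising genes went up by a mean of 0.63 log2 units in male 39103, 0.61 in female 39095 and 0.61 in female 39090. Male 39100 followed at 0.49, male 39102 at 0.43, female 39098 at 0.41 and male 39104 at 0.35, and female 39097 was lowest at 0.24. The order for the falling genes was not the same. Male 39100 fell the most, with a mean of -1.45, and male 39103 followed at -1.04. Animals 39090, 39095, 39102 and 39104 stood close together at -0.71, -0.69, -0.66 and -0.64, and females 39097 and 39098 at -0.47 and -0.32. Per animal, 73.8% to 95.8% of the rising genes were up and 69.5% to 92.2% of the falling genes were down. The counts that follow use the genes called with all 8 animals, the named animal included, and are descriptive. Male 39100 had the most negative change of the 8 animals for 104 of the 298 falling genes (34.9%), compared with 13.8% of all genes tested. Female 39097, whose day 0 share of these genes was the highest, had the least positive or most negative change of the 8 for 105 of the 419 rising genes (25.1%), compared with 14.6% of all genes tested.

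**Figure D4:**
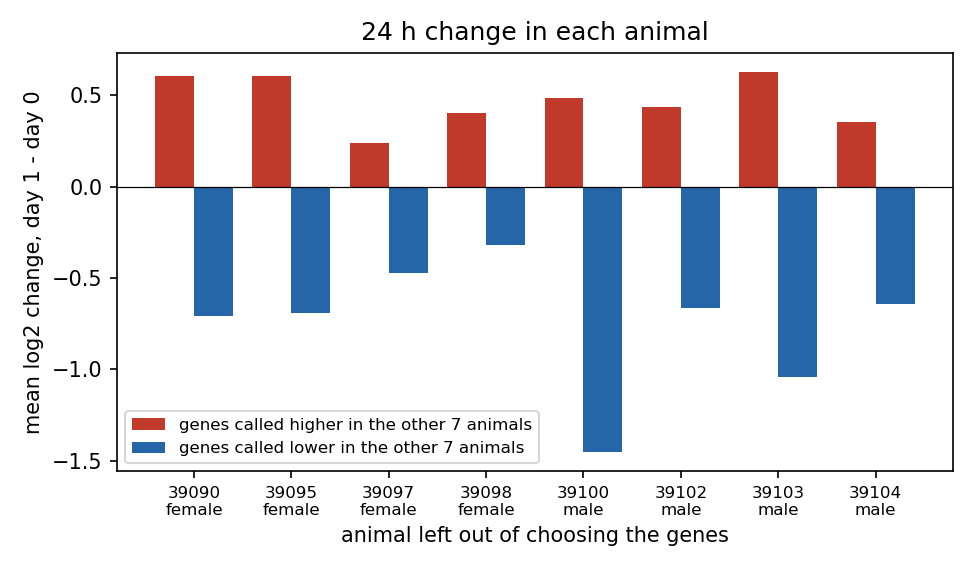
Bars give the mean log2 change from day 0 to day 1 in each animal, for genes called higher (red) or lower (blue) in the other 7 animals. Each of the 8 animals moved up for the red and down for the blue sets, from 0.24 to 0.63 and from -0.32 to -1.45.

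Changes over 24 h were correlated between animals, more so for genes with higher counts. Across all 16054 genes the root mean square of the log2 change was 0.64 to 0.80 per animal. The correlation of these changes between animals, across genes that are not independent replicates, was positive for 28 of 28 pairs of animals, with a median r of 0.10 (0.02 to 0.21). For the 10068 genes that averaged at least 2 log2 CPM the root mean square was 0.32 to 0.50 and the median r was 0.28 (0.07 to 0.51). Counting noise lowers these correlations, and its part in them was not tested. The called genes shifted with which animals were counted. All 717 kept their direction whichever animal was left out, which follows in large part from calling them over all 8 animals. Of the 419 rising genes 208 (49.6%), and of the 298 falling genes 143 (47.99%), were called in each of the 8 fits with 7 animals. The number called was 442 without animal 39090 and 463 without animal 39103. One fit over all 80 libraries, which takes its spread from every day, called 119.

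Female and male responses went the same way in the called genes. The mean change of the 4 females and that of the 4 males each had the called direction for 419 of 419 rising and 298 of 298 falling genes, which follows in large part from calling them over both sexes. The median change of the rising genes was 0.44 in both sexes, and that of the falling genes was -0.51 in females and -0.67 in males. Fitted separately, 257 genes were called in females (1.6% of genes tested) and 394 in males (2.46%). In females 151 rose and 106 fell, with 20 rising and 20 falling over 2-fold. In males 170 rose and 224 fell, with 38 rising and 126 falling over 2-fold. The number called in females was 2 without female 39090, 147 without 39098 and 165 without 39097. The number called in males was 254 without 39104 and 262 without 39103.

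The difference between the sexes itself passed the test in 1 gene (0.00623% of genes tested), with 1052 at an unadjusted p under 0.05. This gene, also among the 298 that fell, went from a mean of 5.48 to 4.94 log2 CPM in females and from 6.15 to 3.16 in males. Females changed by between -1.14 and -0.01 and males by between -3.75 and -2.23, without overlap, and counts ran from 163 to 2485. The female minus male difference was 2.46 (SE 0.32, adjusted p = 0.0385 by edgeR). The count was 0 without animal 39097, 39098 or 39103, 7 without 39104, and 56 by DESeq2. For the 4 printed identifiers the female minus male differences were -0.29 (SE 0.17) for ENSMFAG00000026825, -0.13 (SE 0.13) for ENSMFAG00000048512, 0.69 (SE 0.50) for ENSMFAG00000032523 and 0.70 (SE 0.31) for ENSMFAG00000002016. None passed the edgeR test (adjusted p 0.73 to 0.91).

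The genes of the first 24 h were then examined in the 24 h that followed 10 µg/kg (the second dose, day 4 against day 3) and 15 µg/kg (the third, day 8 against day 7), which use none of the libraries of days 0 and 1. Of the 28 genes that rose over 2-fold, 26 had a positive change following the second dose and 25 following the third, compared with 47.8% and 44.7% of all genes tested. Their median log2 changes were 0.60 and 1.12. After the second dose 0 of the 28 were called in either direction, and after the third 4 were called higher and 1 lower. Of the 80 that fell over 2-fold, 74 had a negative change each time, compared with 52.2% and 55.3% of all genes. Their medians were -1.04 and -2.28. After the second dose 17 of the 80 were called lower and 0 higher, and after the third 65 were called lower and 1 higher. Over all genes tested, 0 were called higher and 29 lower (0.181%) after the second dose, and 6% were called higher and 7.77% lower after the third. In the whole called sets, 336 of the 419 rising genes (80.2%) were positive after both later doses, against 34.8% of all genes. Of the 298 falling genes, 208 (69.8%) were negative after both, against 42.3% of all genes.

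Some of the falling genes changed differently after the third dose than after the first. By the test of that difference (edgeR, 32 libraries of days 0, 1, 7 and 8, adjusted p under 0.05), 64 of the 298 falling genes (21.5%) differed, compared with 4.94% of all genes tested. The share among the 419 rising genes, 20 genes or 4.77%, was near that of all genes. Of the 64, 57 went up after the third dose, and the median of the 64 was -0.62 after the first and 0.93 after the third. The genes were selected on the day 0 and day 1 libraries that this test also uses, which favours differences opposite to the first change, so these counts are descriptive. After the second dose the corresponding difference passed the test in 0 of 16054 genes, with 1335 at an unadjusted p under 0.05.

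The 4 printed identifiers followed 4 courses. ENSMFAG00000002016 fell again after the third dose, with a log2 change of -2.33 (SE 0.29, adjusted p = 0.0106 by edgeR), lower in 8 of 8 animals. Its change of -1.07 after the second dose (SE 0.20), also lower in 8 of 8, missed the threshold (adjusted p = 0.0568). Between doses it returned to 4.52 ± 0.63 log2 CPM (SD, n = 8) on day 3 and overshot to 5.93 ± 0.59 on day 7, where 8 of 8 animals stood above their own day 0. It remained at 5.39 ± 0.44 on day 21, again above day 0 in 8 of 8.

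ENSMFAG00000032523 did not return. From a day 0 mean of 3.39 ± 1.04 log2 CPM (SD, n = 8) it reached 0.30 ± 1.37 by day 3. It was at -1.25 ± 1.95 on day 10 and at 0.40 ± 1.36 on day 21. The day 10 libraries of animals 39102, 39103 and 39104, which carried another run tag, stood at -2.46, -3.79 and -3.79. The value -3.79 is the level of a gene without counts. The other animals lay between -0.71 and 1.77 on day 10, and the part of the run was not tested. Every animal was below its own day 0 on days 1, 3, 7, 10, 14, 17 and 21, and 7 of 8 were on days 4 and 8. Its change after the third dose was 1.45 (SE 0.50, adjusted p = 0.0694 by edgeR), with 6 of 8 animals higher, and after the second dose it was 0.03 (SE 0.71, adjusted p = 0.99). In the separate fit of the 32 libraries of days 0, 1, 7 and 8, the third-dose change minus the first-dose change was 4.12 (SE 0.71, adjusted p = 0.016 by edgeR). The gene was selected for its fall in the day 0 and day 1 libraries of that fit. This favours a positive difference, so the value is descriptive.

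ENSMFAG00000026825 had a mean level of 5.25 ± 0.49 log2 CPM on day 3 (SD, n = 8), then 5.66 ± 0.48 on day 4, and 5.95 ± 1.11 on day 8. On day 7 it was at 4.81 ± 0.60, near its day 0 mean of 4.59. On day 10 it was at 5.41 ± 0.72, above day 0 in 8 of 8 animals. On day 14 it was at 5.63 ± 1.26, above day 0 in 5 of 8. The day 14 libraries of 39090, 39095, 39097, 39098 and 39100 carried another run tag and stood at 7.69, 4.29, 6.49, 5.47 and 4.63. Those of 39102, 39103 and 39104 did not, and stood at 4.84, 4.69 and 6.96. The part of the run was not tested. On day 21 the gene was at 4.37 ± 0.42, below day 0 in 7 of 8 animals. The change after the second dose was 0.41 (SE 0.17, adjusted p = 0.45 by edgeR), with 6 of 8 animals higher. That after the third was 1.10 (SE 0.33), higher in 8 of 8 animals, and lay just outside the threshold (adjusted p = 0.0508 by edgeR). ENSMFAG00000048512 stayed above its own day 0 in at least 7 of 8 animals on every later day, at 5.16 ± 0.36 log2 CPM on day 3 and 5.27 ± 0.62 on day 21. Its later 24 h changes, 0.17 (SE 0.11) and 0.29 (SE 0.14) after the other doses in turn, did not pass the edgeR test (adjusted p = 0.53 and 0.15). Levels set against day 0 on several days share the same 8 day 0 libraries.

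**Figure D5:**
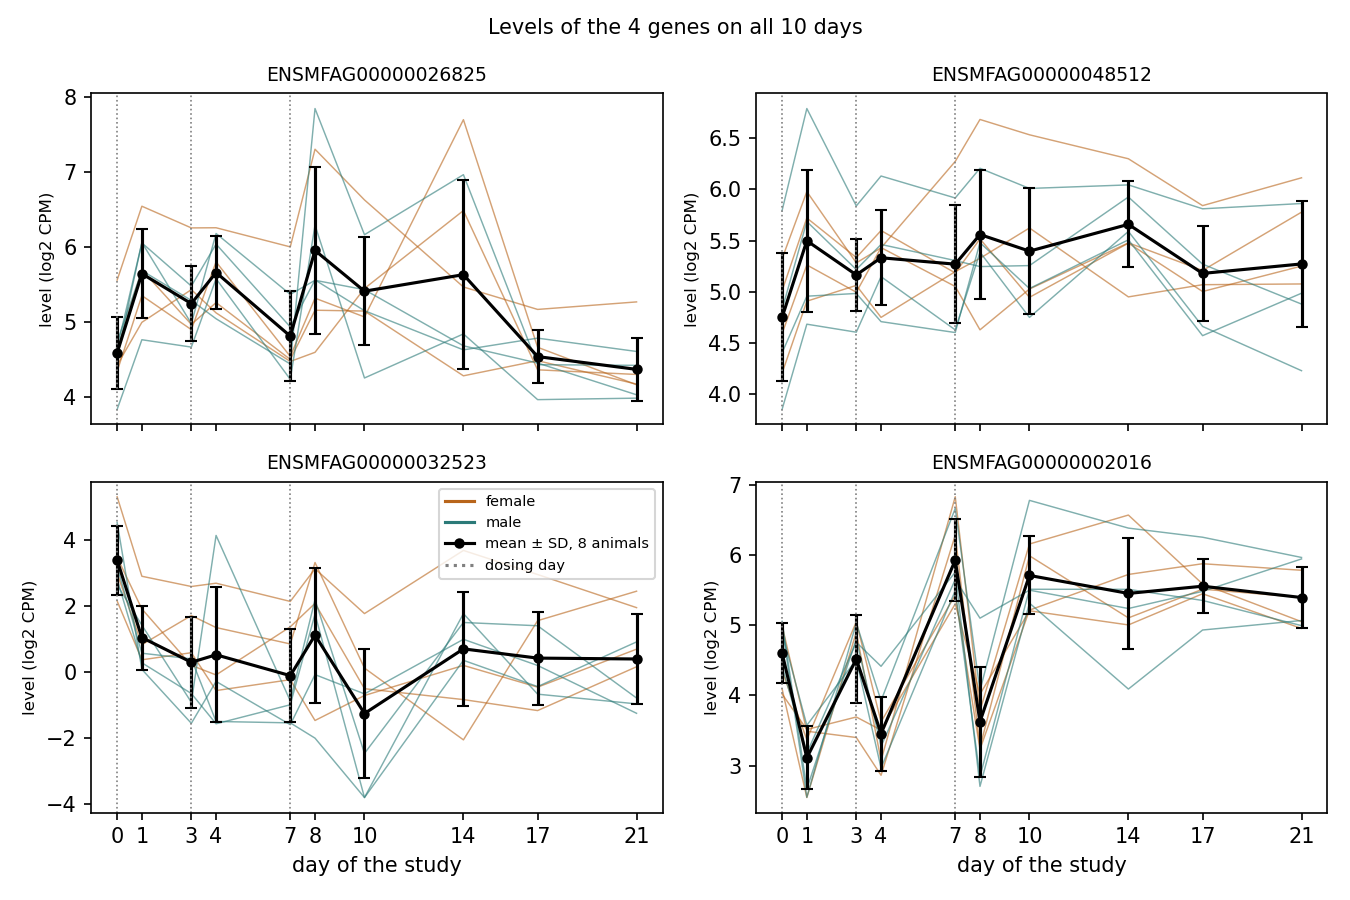
Thin lines give the level (log2 CPM) of each animal on the 10 sampling days for the 4 genes, black points the mean ± SD of 8 animals, and dotted lines the dosing days. ENSMFAG00000002016 drops on days 1, 4 and 8 and recovers between them, while ENSMFAG00000032523 stays below its day 0 mean on every later day.

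The second deposited table, whose identifiers are of another series, gave a similar count. With totals of 21.0 M to 30.9 M counts, 744 of 15218 genes tested (4.89%) were called, 435 higher (2.86%) and 309 lower (2.03%), 117 of them by more than 2-fold (31 up and 86 down). Identifiers of both tables are not paired in the files, so calls could not be matched gene by gene.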

How the data were processed

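RNA was isolated from whole blood with the RNAdvance Blood kit and made into mRNA libraries with KAPA HyperPrep reagents, per the labels' protocols. The authors deposited 2 tables of raw gene counts (whole numbers) covering the 80 libraries. How reads were aligned and counted, with which annotation and strand option, is not given in the sources used here. Libraries were assigned to day and animal from the library names in the labels. Genes were kept with edgeR's filterByExpr (minimum count 10) on the day groups of the 80 libraries (16054 of 38550 passed) and scaled with TMM factors over the same libraries. The 16 libraries of days 0 and 1 were fitted with animal as a block using edgeR 4.0.16 (glmQLFit and glmQLFTest) in R 4.3.3, with Benjamini-Hochberg adjustment over all genes. The SE was taken from the log2 fold change and its F value, and a prior count of 2 was used for log2 CPM. Single library measures used exact sign-flip permutation tests over animals (256 flips, smallest p 0.00781).

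Same-numbered libraries come from the same animal and were paired on that basis. After subtracting the mean of its day, libraries correlated between days at a median r of 0.52 for the same animal (lowest 0.44) and -0.06 for different animals. No 2 libraries of a day agreed within counting noise (smallest chi-square per degree of freedom 22.1). Alternatives were other scaling factors, no filter, DESeq2 1.42.0, limma 3.58.1 (voom with sample weights), no block, all 80 libraries in 1 fit and each animal left out. Counts were simulated for day 1 against day 0 (16053 genes), with 200 genes changed 2-fold and drawn from those above a mean of 4 CPM. Of the changed genes 99.5% were recovered, and 5.24% of calls were false. The simulated counts were independent between genes, with a spread set by level alone and no spread particular to a gene. Most real calls were also below 2-fold, so these rates cannot be carried over to the real calls. The genes printed were chosen by the rule given with the results, and 16 lists of gene symbols, cell type markers among them, were not used because no symbol could be paired. The comparison, rules and lists were chosen with earlier results of these data known.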

Additional observations from a re-analysis of the deposited data

Results flagged for a closer look

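In groups of 8 values, a highest or lowest value set apart by a gap larger than 0.526 of the range was marked (Dixon's test), which chance does in about 1 in 20 groups. Of 36 groups examined, 4 were marked. Female 39090 had the deepest day 0 library, 30.3 M counts against 24.9 M in the next. Female 39097 held 8.54% of its day 0 counts in the genes called higher on day 1, against 5.95% in the next animal. The most abundant gene of male 39100 took 2.23% of its day 1 counts, against 1.77% in the next. The change of ENSMFAG00000032523 in male 39100 was -4.44 log2 units, against -2.63 in the next.

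Responses that differed between groups were marked as well. The single gene of the sex-by-day test had a female minus male difference of 2.46. For ENSMFAG00000032523, which fell after the first dose and had a positive change after the third, the third-dose change minus the first-dose change was 4.12 log2 units in the fit of the 32 libraries of both intervals. Among genes called on day 1, the change after the third dose differed from that after the first for 20 called higher, a share near that of all genes, and 64 called lower. That test reuses the libraries on which these genes, and ENSMFAG00000032523, were selected. The size of the dose, the number of earlier doses and the day cannot be told apart between these intervals.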

How the results depend on the processing

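The main count was 717 genes with animal as a block. The fit without the replicate block called 10 (5 higher, 5 lower, 7 over 2-fold), and 1 fit over all 80 libraries called 119 (46 higher, 73 lower, 58 over 2-fold), of which 111 were among the 717 in the same direction. Without the low-count filter 1463 were called (806 higher, 657 lower, 177 over 2-fold), and by DESeq2 1203 (643 and 560); the cause was not tested. DESeq2 called 704 of the 717 in the same direction and limma voom 700. Other scalings called 693 to 748, with 46.5% higher by library totals against 58.4% in the main fit by TMM. Leaving out 1 animal gave 442 to 650 calls, 250 to 385 higher, 192 to 265 lower and 79 to 134 over 2-fold. The calls in females ranged from 2 to 193 and in males from 254 to 330. The sex-by-day count of 1 was 3 with library totals, 242 without the filter, 56 by DESeq2, 0 without the replicate block and 0 to 7 with 1 animal left out. The difference in genes at 1 CPM was -144 to -102 and that in the share of the top 10 genes 0.373 to 0.515 percentage points with 1 animal left out, each past the threshold. At 5 CPM the first was -72.2 and missed it.

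The 4 printed identifiers kept their direction in all 18 alternatives. This follows in large part from selecting them for the same direction in every animal of these libraries. ENSMFAG00000002016 was called in each (adjusted p up to 0.00774). ENSMFAG00000026825, ENSMFAG00000048512 and ENSMFAG00000032523 lost the call without the block (adjusted p = 0.16, 0.60 and 0.12), and the first also when all 80 libraries shared 1 fit (adjusted p = 0.061). Counting depth limits the class of lowest level, where the median SE was 0.58 log2 units.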
